A study of Mus musculus with 6 samples.

Results

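The TRIM genes encode a large family of proteins built from a RING finger, B-box zinc fingers and a coiled coil. The genes described here were taken by symbol, as every listed mouse gene called Trim followed by a number and any letter suffix that had at least 1 read in any library. The table lists 47 such genes, 46 of them with a read, out of 20756 genes in all. The remaining gene, Trim9, is listed at 0 in all 6 libraries. The libraries are 3' tag sequencing of mouse tumor organoids, 3-dimensional epithelial cultures that were derived from an intestinal tumor's liver metastasis on the C57BL/6 background and grown in basement membrane extract. They came from an organoid population with a scrambled guide RNA (sgScr, 3 libraries) and a population with a guide to Prkci, which encodes PKC lambda/iota, an atypical protein kinase C (sgPrkci, 3 libraries). No treatment was given to either, and both were harvested at 72 h. The labels call the sgPrkci libraries a knockout, while the tumor's driver alleles, the number of clones in each population and the position of the guide were not given in the sources used here.

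In most TRIM proteins the RING finger makes the protein a ubiquitin ligase, which joins ubiquitin chains to chosen partners, and the carboxy-terminal domain picks the partner. Many members act in the defence against viruses, either on the virus itself or on the sensors of foreign RNA and DNA, and several are induced by interferon. Others work in chromatin, in the cytoskeleton, in cell division or in the clearance of damaged organelles.

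Depth was 2141125 to 3048170 reads per library, so that 1 read was worth 0.328 to 0.467 CPM (a gene's reads scaled to a library total common to all 6). The 46 members together had 2449 to 3572 reads per library. Their summed level was 1153 to 1172 CPM in the sgScr libraries and 1110.4 to 1144 CPM in the sgPrkci libraries. Of 8 intestinal epithelial markers, all 8 had reads, with a summed level of 3317 to 3868 CPM in sgScr and 3640 to 4029 CPM in sgPrkci. They moved in both directions, as Lgr5, Vil1 and Epcam rose (0.88, 0.73 and 0.48 on the log2 scale of the limma test described below) and Cdx2 fell from 25.8 ± 1.97 to 12.5 ± 2.43 CPM and Krt18 from 591 ± 12.8 to 461 ± 10.3 CPM, and their part in the results below was not tested. Krt18 did not pass with chromosome medians removed, where its value was 0.0072. The defining markers of other cell types were at or near 0, with summed levels of at most 1.51 CPM for immune cells (2 of 5 listed markers, the others not analysed here), 2.34 CPM for fibroblasts and 0.335 CPM for endothelium. The fibroblast marker Pdgfra had 1, 0 and 2 reads in sgScr and 5, 4 and 2 in sgPrkci. Of the listed hepatocyte markers, Ttr was at 0, Alb had 1 read, and Apoa2 had 1 read in sgScr and 2 in sgPrkci. Apoa1 was at 16.1, 1.64 and 5.67 CPM in sgScr replicates 1, 2 and 3 and 1.13, 0.467 and 0.355 CPM in sgPrkci replicates 1, 2 and 3. Whether the Apoa1 reads came from hepatocytes was not tested. The part of the Apoa1 difference in the results below was not tested. Prkci mRNA was at 46.6, 54.5 and 63.8 CPM in sgScr replicates 1, 2 and 3 and 53.9, 56.5 and 46.9 CPM in sgPrkci replicates 1, 2 and 3, and since the tags sit at the 3' end of the transcript, these values do not check the edit. Reads of the Y-linked gene Ddx3y were 0, 0 and 0 in sgScr and 41, 46 and 62 in sgPrkci, and Xist had 4 and 2 reads, so the organoid populations also differed in a Y-linked transcript, whose part in the results was not tested.

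Which TRIM transcripts differ between the organoid populations was asked by comparing the sgPrkci libraries with the sgScr libraries. Of the 46 members, 35 reached 1 CPM in 3 or more of the 6 libraries and were tested in a limma fit over all 12195 such genes, on log2(CPM + 1) and with Benjamini-Hochberg adjustment over all of them. Genes with an adjusted p under 0.05 are said to have risen or fallen. A log2 fold change is the sgPrkci mean minus the sgScr mean on that scale, where changes of genes with few reads come out too small, and means carry the SD of 3 libraries. In the family, 5 of the 35 tested genes rose (14.3%), 8 fell (22.9%) and 22 passed in neither direction. Among all tested genes 11.4% rose and 20.5% fell, so the counts of the family lay near the background. The median log2 fold change of the tested members was -0.10, and that of all tested genes was -0.11. The libraries of the groups did not overlap for 14 members, with 6 (17.1%) higher and 8 (22.9%) lower in sgPrkci, against 15.9% and 27.1% of all tested genes. With TMM scaling, which moved the median of all genes to -0.02, 7 members rose and 7 fell, against 15.7% and 14.9% of all genes. The p-values measure the spread between libraries of a group, and the guide and any other difference between the populations cannot be told apart. Nor can fewer cells of a type and less RNA per cell in these bulk libraries.

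**Figure D1:**
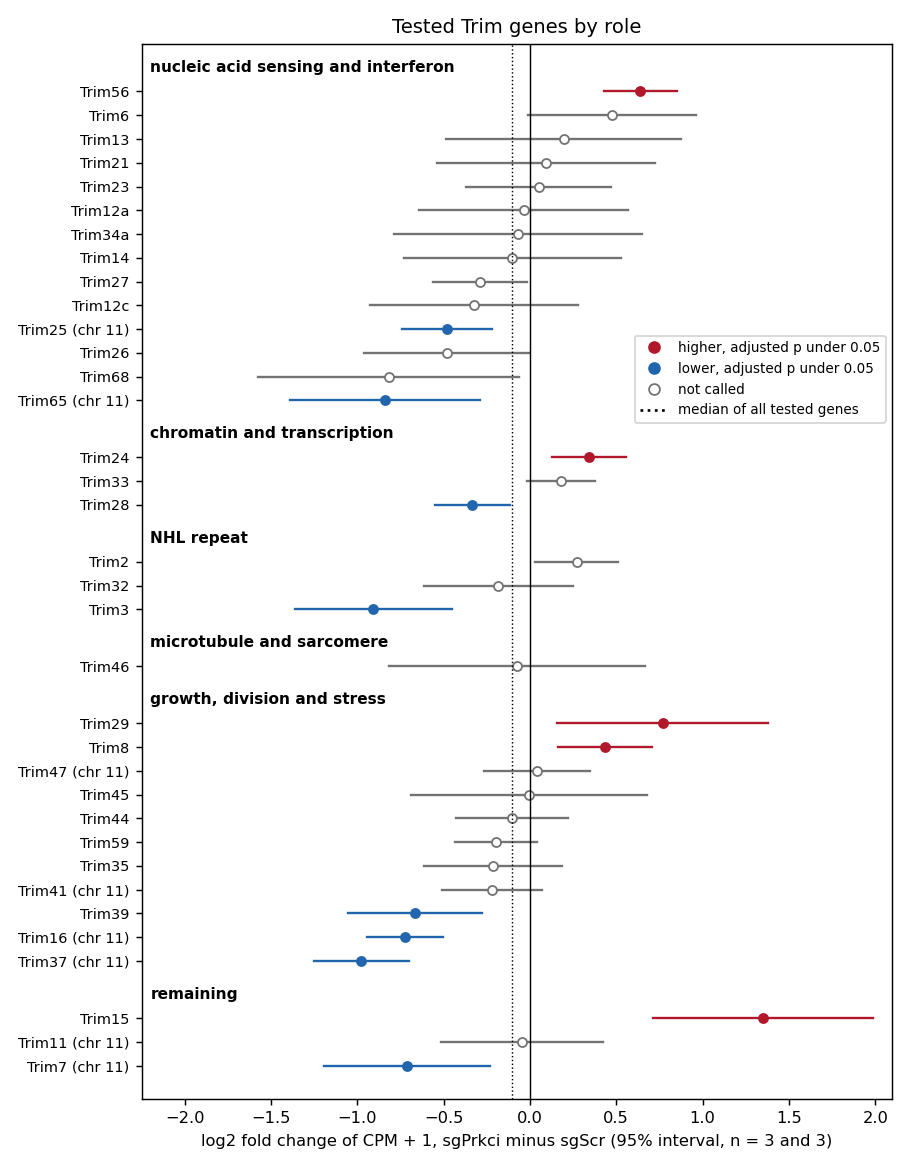
Log2 fold change of CPM + 1 (x axis, sgPrkci minus sgScr) of the 35 tested Trim genes, grouped by role, with 95% intervals from limma; filled red and blue points passed an adjusted p of 0.05, and the dotted line is the median of all tested genes. Points range from -0.98 (Trim37) to 1.35 (Trim15), and rising and falling members stand side by side within most roles.

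Most members of nucleic acid sensing and interferon signalling did not pass the test. Of 17 such members with a read 14 were tested, of which Trim56 rose, Trim25 and Trim65 fell and 11 did not pass, where 11.4% and 20.5% of all tested genes rose and fell, with a median log2 fold change of -0.09. Trim56 (ENSMUSG00000043279, chromosome 5, 137105644 to 137116209), a ligase known to promote signalling by the DNA sensor cGAS and the adaptor STING, was at 118, 103 and 87.2 CPM in sgScr replicates 1, 2 and 3 and 162, 161 and 154 CPM in sgPrkci replicates 1, 2 and 3. All sgPrkci libraries lay above all sgScr libraries, and the gene rose from 103 ± 15.2 to 159 ± 4.04 CPM (0.64 ± 0.10 SE on the log2 scale, adjusted p = 1.7e-05). Trim25 (ENSMUSG00000000275, chromosome 11, 88999376 to 89020293), the ligase that puts ubiquitin chains on the RNA sensor RIG-I and also joins ISG15 to proteins, was at 48.9, 50.2 and 53.2 CPM in sgScr replicates 1, 2 and 3 and 36.2, 34.6 and 37.6 CPM in sgPrkci replicates 1, 2 and 3. Its groups did not overlap either, and it fell from 50.8 ± 2.16 to 36.1 ± 1.54 CPM (-0.48 ± 0.13 SE on the log2 scale, adjusted p = 0.0044). Trim65 (chromosome 11, 116121846 to 116131128), which acts in the same way on the RNA sensor MDA5, had 24, 32 and 31 reads in sgScr and 8, 11 and 22 in sgPrkci. It was at 8.05, 10.5 and 11 CPM in the sgScr libraries and 3.02, 5.14 and 7.81 CPM in the sgPrkci libraries and fell (-0.84 ± 0.27 SE on the log2 scale, adjusted p = 0.017). The sgPrkci libraries of Trim65 spread from 3.02 to 7.81 CPM, just under the lowest sgScr library at 8.05 CPM. Trim65 shares 225 exon bases on the same strand with its neighbour Trim47, so reads in that stretch could be counted to either. Trim25 and Trim65 lost their calls with DESeq2. The same happened after subtraction of chromosome medians, where their log2 fold changes were -0.08 and -0.44. Trim65 also lost it when sgScr replicate 2 (-0.79), sgScr replicate 3 (-0.76) or sgPrkci replicate 1 (-0.55) was left out, and with plain moderation (limma without trend or robust weights).

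The other 11 tested members of this role did not pass. Trim21, the cytosolic receptor that recognises antibody-coated viruses, was at 3.02, 2.62 and 2.13 CPM in the sgScr libraries and 2.64, 2.34 and 3.55 CPM in the sgPrkci libraries. These values overlapped, and the 95% interval of its log2 fold change ran from -0.54 to 0.73. Trim14, which lacks a RING finger and acts as a mitochondrial adaptor in RIG-I signalling, was at 3.02, 2.62 and 4.61 CPM in the sgScr libraries and 4.15, 2.34 and 2.84 CPM in the sgPrkci libraries (interval -0.73 to 0.53). Trim14 shares 1356 exon bases with Nans on the opposite strand, and whether the counting used strand was not given in the sources used here. Trim26, a ligase encoded in the MHC region, was at 15.8, 17.4 and 14.2 CPM in the sgScr libraries and 15.5, 6.54 and 12.8 CPM in the sgPrkci libraries. Its sgPrkci replicate 2 was the lowest of the 6 libraries and sgPrkci replicate 1 lay within the sgScr range (log2 fold change -0.48, adjusted p = 0.12). Without sgPrkci replicate 1 it passed, at a log2 fold change of -0.71. Trim27, which works with the WASH complex on endosomes, was at 51.3, 60.4 and 54.2 CPM in the sgScr libraries and 44.1, 37.8 and 54.3 CPM in the sgPrkci libraries (log2 fold change -0.29, adjusted p = 0.1). It passed at -0.42 without sgPrkci replicate 3, whose value lay within the sgScr range.

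Trim6, known for making free ubiquitin chains that activate the kinase IKK epsilon, was at 6.70, 11.5 and 15.2 CPM in the sgScr libraries and 19.2, 14.5 and 12.4 CPM in the sgPrkci libraries. Its 3 sgScr values differed by more than 2-fold, and the interval of the difference ran from -0.01 to 0.96. Trim68 was at 4.02, 5.58 and 1.42 CPM in the sgScr libraries and 2.64, 0.934 and 1.07 CPM in the sgPrkci libraries, with sgScr replicate 3 far below the other sgScr libraries (log2 fold change -0.82, adjusted p = 0.091). Without sgScr replicate 3 both passed, Trim6 at 0.72 and Trim68 at -1.24, and Trim68 also passed without sgPrkci replicate 1 (-1.11). Trim23, which carries an ARF-like GTPase domain, was at 15.0 ± 1.74 CPM with sgScr and 15.9 ± 4.62 CPM with sgPrkci, and Trim13, a ligase anchored in the endoplasmic reticulum, at 1.80 ± 0.331 CPM with sgScr and 2.26 ± 0.801 CPM with sgPrkci. The intervals of their log2 fold changes were -0.37 to 0.47 and -0.49 to 0.88. Trim12a was at 3.50 ± 0.753 CPM with sgScr and 3.38 ± 0.692 CPM with sgPrkci, Trim12c at 5.56 ± 2.09 CPM with sgScr and 4.10 ± 0.939 CPM with sgPrkci and Trim34a at 2.69 ± 1.16 CPM with sgScr and 2.58 ± 1.31 CPM with sgPrkci. Their intervals were wide, from -0.64 to 0.57, -0.93 to 0.28 and -0.79 to 0.65.

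**Figure D2:**
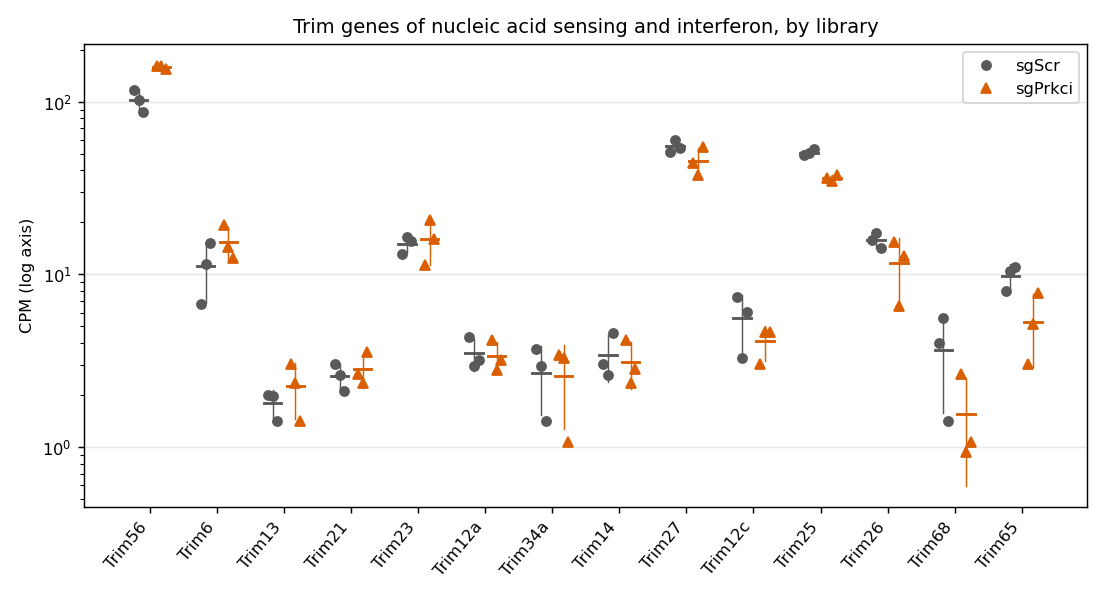
CPM (log axis) of the 14 tested Trim genes of nucleic acid sensing and interferon signalling in each library; circles are sgScr and triangles sgPrkci, horizontal bars are means and vertical bars SD (n = 3). Trim56 (left) is higher in all 3 sgPrkci libraries and Trim25 and Trim65 lower, while the other 11 overlap.

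Trim6, Trim34a, Trim5, Trim12a, Trim12c, Trim30a and Trim30d lie together on chromosome 7 within 289 kb, the counterpart of the region that in primates holds the gene of the restriction factor TRIM5, which blocks incoming retroviruses. Trim6 had 20, 35 and 43 reads in sgScr and 51, 31 and 35 in sgPrkci, and the other 6 had fewer in each group's sum. Of the 75-base stretches in the last 500 bases of the coding transcripts, 20.3% in Trim5, 17.6% in Trim34a, 15.4% in Trim30d and 4.0% in Trim12c also occur in transcripts of other genes, so their reads are uncertain. For Trim6, Trim12a and Trim30a the share was 0%. Trim30a, which in the mouse limits Toll-like receptor signalling, had 1, 1 and 0 reads in sgScr and 0, 0 and 0 in sgPrkci. Trim30d had 4, 1 and 1 reads in sgScr and 0, 0 and 0 in sgPrkci, and Trim5 had 3, 0 and 2 reads in sgScr and 0, 0 and 0 in sgPrkci. By depth, the sgScr reads as counted stood 1.72-fold (Trim30d) and 1.43-fold (Trim5) above a floor of 3 reads over the sgPrkci group. For Trim30a both groups were under the floor. Without a filter limma called Trim30d lower (-0.69 on the log2 scale, adjusted p = 0.045) and did not call Trim5 (-0.59, adjusted p = 0.075). The ratios to the floor take the sgScr reads as exact and leave out their counting error.

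Promoters were searched for an element that the rule on symbols did not use. Type I interferon acts on its target genes through the interferon-stimulated response element (ISRE), which was searched as the letters GAAANNGAAA on either strand (TTTCNNTTTC on the other) in RefSeq windows of 250 bases before to 50 after each gene's start on GRCm38.p6. Windows were found for 35 of the 46 members, and overlapping matches were counted each. At least 1 match stood in the windows of 9 of these members (25.7%), against 3.99% of 27025 genes and 3.44% of 32851 windows. Their genes were Trim21, Trim26, Trim34a, Trim5, Trim12a, Trim12c, Trim30a, Trim30d and Trim2, of which 6 lie in the chromosome 7 group. Of these, Trim5, Trim12a and Trim12c share sequence with each other, and so do Trim30a and Trim30d. The stretches around the matches are shown for 8 of the 9, because none of the 8 members that rose or fell and have a window holds one. Trim2 is left out, since its match began 28 bases after the gene's start and ran past the limit set for printed stretches. Another Trim30a window with a match is not shown. Matches are in capitals, and each stretch is read along its gene's strand.
Trim21 (chr7:102565453-102565524, minus strand): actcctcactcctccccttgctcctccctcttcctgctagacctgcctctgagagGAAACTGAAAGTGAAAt
Trim26 (chr17:36836931-36837056, plus strand): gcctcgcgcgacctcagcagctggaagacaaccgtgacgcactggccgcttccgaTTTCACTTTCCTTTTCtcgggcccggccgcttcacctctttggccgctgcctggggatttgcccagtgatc
Trim34a (chr7:104244412-104244486, plus strand): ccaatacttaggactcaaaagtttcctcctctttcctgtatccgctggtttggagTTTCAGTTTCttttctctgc
Trim5 (chr7:104288091-104288210, minus strand): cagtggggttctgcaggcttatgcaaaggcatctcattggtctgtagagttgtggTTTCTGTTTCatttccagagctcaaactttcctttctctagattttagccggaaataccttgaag
Trim12a (chr7:104315466-104315540, minus strand): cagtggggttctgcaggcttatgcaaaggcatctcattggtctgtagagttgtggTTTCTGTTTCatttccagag
Trim12c (chr7:104353320-104353433, minus strand): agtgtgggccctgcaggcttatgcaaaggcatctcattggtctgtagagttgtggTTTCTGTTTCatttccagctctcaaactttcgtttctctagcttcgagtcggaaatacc
Trim30a (chr7:104465165-104465284, minus strand): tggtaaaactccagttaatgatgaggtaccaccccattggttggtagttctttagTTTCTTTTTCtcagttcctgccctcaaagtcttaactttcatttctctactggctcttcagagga
Trim30d (chr7:104507826-104507945, minus strand): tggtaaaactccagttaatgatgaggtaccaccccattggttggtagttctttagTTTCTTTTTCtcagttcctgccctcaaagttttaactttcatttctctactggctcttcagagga

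In Trim21 and Trim26 a pair of matches overlapped by 4 bases. Over 85 bases aligned at the match, Trim5 and Trim12a were 100% identical and Trim12c 89.4% identical to both, and over the same span Trim30a and Trim30d were 100% identical. These copies are therefore not independent of each other. Of the 9 members with a match 6 were tested, and limma called 0 of them. At an unadjusted p under 0.05, 1 (Trim2) was higher and 1 (Trim26) lower. EdgeR called 1 of the 6, Trim2, and DESeq2 called 0. Of the 26 members with a window and no match, 20 were tested, and 3 rose and 5 fell. Over all 303 tested genes with a match 9.57% rose and 19.8% fell, and over 8636 tested genes without a match 11.8% and 21.5%. The 150 bases before the starts of Trim56 and Trim25 are shown because these members did change, and neither gene's whole window held the letters. The starts are RefSeq's and differ from the ends of the GENCODE genes given above, so the last bases of the Trim25 and Trim56 stretches lie inside those genes.
Trim56 (chr5:137116208-137116357, minus strand): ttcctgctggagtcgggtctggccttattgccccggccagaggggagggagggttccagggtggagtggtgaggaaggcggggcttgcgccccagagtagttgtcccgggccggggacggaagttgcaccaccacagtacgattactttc
Trim25 (chr11:88999253-88999402, plus strand): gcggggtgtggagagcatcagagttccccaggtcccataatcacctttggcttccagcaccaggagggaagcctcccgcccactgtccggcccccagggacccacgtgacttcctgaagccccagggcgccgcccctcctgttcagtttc

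A missing match says only that these letters are not in this window. An antioxidant response element (TGACNNNGC, either strand) stood in the windows of 4 members (11.4%), against 14.0% of genes, and a kappaB element in those of 4 members (11.4%), against 9.55% of genes.

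The chromatin members moved in opposite directions. Trim24 rose and Trim28 fell, Trim33 did not pass, and Trim66 had 1 read in all. Trim24 (ENSMUSG00000029833, chromosome 6, 37870811 to 37966296), a coregulator of nuclear receptors that also brings ubiquitin to p53, was at 96.2, 89.2 and 86.1 CPM in sgScr replicates 1, 2 and 3 and 106, 109 and 131 CPM in sgPrkci replicates 1, 2 and 3. The groups stood apart by little, and it rose from 90.5 ± 5.17 to 115 ± 13.5 CPM (0.34 ± 0.10 SE on the log2 scale, adjusted p = 0.013). Trim28 (ENSMUSG00000005566, chromosome 7, 12999114 to 13031035), the corepressor that KRAB zinc finger proteins bring to DNA and that silences retroelements, was at 87.2, 84.3 and 91.1 CPM in sgScr replicates 1, 2 and 3 and 66.8, 72.4 and 68.5 CPM in sgPrkci replicates 1, 2 and 3. All sgPrkci libraries were lower, and it fell from 87.5 ± 3.39 to 69.2 ± 2.88 CPM (-0.33 ± 0.11 SE on the log2 scale, adjusted p = 0.016). Trim33, a ligase and chromatin reader of the SMAD pathway, was at 124, 112 and 112 CPM in the sgScr libraries and 121, 138 and 136 CPM in the sgPrkci libraries (log2 fold change 0.18, adjusted p = 0.16). The calls of Trim28 and Trim33 depended on the scaling. With TMM factors, median-of-ratios factors or edgeR, Trim28 did not pass (adjusted p = 0.097, 0.098 and 0.093) and Trim33 did, at log2 fold changes of 0.28 each. Trim28 also did not pass with DESeq2 (-0.24), with plain moderation, with chromosome medians removed (-0.26), without sgScr replicate 3 (-0.31) or without sgPrkci replicate 1 (-0.31). The call of Trim24 ended with plain moderation, without sgScr replicate 2 (0.33) and without sgPrkci replicate 3 (0.25).

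Partners of these chromatin proteins were read from a list. Of 15 tested genes of TRIM28 silencing and TRIM33 SMAD signalling, 1 rose and 6 fell, against 11.4% and 20.5% of all tested genes, with a median log2 fold change of -0.15 against -0.11 over all tested genes. With DESeq2, 3 of them fell, where 1118 of all 12195 tested genes did. Cbx5 and Cbx1, which encode heterochromatin proteins that bind TRIM28, fell from 416 ± 16.1 to 273 ± 4.73 CPM (-0.61 ± 0.08 SE on the log2 scale, adjusted p = 5.3e-07) and from 413 ± 24.2 to 280.2 ± 2.17 CPM (-0.56 ± 0.08 SE on the log2 scale, adjusted p = 2.7e-06). Pphln1, a subunit gene of the HUSH silencing complex, fell from 53.1 ± 6.91 to 29.7 ± 2.05 CPM, and the DNA methyltransferase gene Dnmt1 from 105 ± 6.92 to 79.0 ± 3.51 CPM. The histone methyltransferase gene Setdb1, whose product works with TRIM28, was at 22 ± 5.60 CPM with sgScr and 22.6 ± 2.02 CPM with sgPrkci (adjusted p = 0.82). Smad3, the signal carrier of TGF-beta, was the only list member that rose, from 177 ± 20.8 to 252 ± 31.1 CPM (0.51 ± 0.10 SE on the log2 scale, adjusted p = 0.00018). Cbx1 lies on chromosome 11, and Cbx5 and Pphln1 on chromosome 15, where the median log2 fold changes of genes with mean CPM of 10 or more were -0.40 and -0.37, and Cbx1 did not pass when chromosome medians were removed (-0.16). Dnmt1 did not pass with DESeq2 (-0.31).

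Members with NHL repeats, which read RNA or carry cargo, included Trim3, which fell. Trim3 (ENSMUSG00000036989, chromosome 7, 105604463 to 105633571), studied mainly in the brain and as a growth suppressor, was at 15.1, 13.8 and 11.7 CPM in sgScr replicates 1, 2 and 3 and 7.54, 5.60 and 7.10 CPM in sgPrkci replicates 1, 2 and 3. The highest sgPrkci library, at 7.54 CPM, lay below the lowest sgScr library, at 11.7 CPM, and the gene fell from 13.5 ± 1.71 to 6.75 ± 1.02 CPM (-0.91 ± 0.22 SE on the log2 scale, adjusted p = 0.0021). Trim2, a ligase of neurofilaments, was at 55, 52.8 and 49.6 CPM in the sgScr libraries and 63.7, 68.7 and 58.2 CPM in the sgPrkci libraries. Its groups did not overlap, but it did not pass on the CPM scale (log2 fold change 0.27, adjusted p = 0.082). It passed with TMM (0.37), median-of-ratios factors (0.37) and edgeR (0.37). Trim32, whose human gene is mutated in a limb-girdle muscular dystrophy, was at 11.4, 14.1 and 18.1 CPM in the sgScr libraries and 13.2, 9.81 and 14.9 CPM in the sgPrkci libraries (interval -0.62 to 0.25). The microtubule-binding members were near the detection limit. Trim46 was at 1.02 ± 0.0408 CPM with sgScr and 0.918 ± 0.156 CPM with sgPrkci, on 2 or 3 reads per library (interval -0.82 to 0.67), and it shares 239 exon bases with Krtcap2 on the opposite strand. Trim36 and Trim67 had 11 reads and 1 read in all.

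Members of growth, division and stress moved in both directions. Of 13 with a read 11 were tested, of which Trim8 and Trim29 rose and Trim37, Trim16 and Trim39 fell. Of all tested genes 11.4% rose and 20.5% fell. The median log2 fold change of the role was -0.20, against -0.11 over all tested genes. Trim37 (ENSMUSG00000018548, chromosome 11, 87127077 to 87220683), a ligase that limits centrosome assembly and supports peroxisome import, was at 52.3, 49.9 and 56.3 CPM in sgScr replicates 1, 2 and 3 and 27.5, 26.2 and 25.2 CPM in sgPrkci replicates 1, 2 and 3. The libraries of each group were close together and the groups far apart, and it fell from 52.8 ± 3.27 to 26.3 ± 1.17 CPM (-0.98 ± 0.13 SE on the log2 scale, adjusted p = 1.5e-06), a 2.01-fold lower mean. Trim16 (ENSMUSG00000047821, chromosome 11, 62820231 to 62850808), which lacks a RING finger and marks damaged lysosomes for autophagy, was at 141, 129 and 129 CPM in sgScr replicates 1, 2 and 3 and 80.0, 92.5 and 69.3 CPM in sgPrkci replicates 1, 2 and 3. It fell from 133 ± 7.22 to 80.6 ± 11.6 CPM (-0.73 ± 0.11 SE on the log2 scale, adjusted p = 5.1e-06). Trim16 shares 237 exon bases on the same strand with Fbxw10, which had 9 reads against 1784 of Trim16. Of the 75-base stretches at the ends of its coding transcripts, searched as above, 19.4% also occur in transcripts of Fbxw10. Trim16 reads in those stretches are therefore uncertain. The low count of Fbxw10 does not show which gene they came from. Trim39 (chromosome 17, 36258873 to 36272247), a ligase that slows the anaphase-promoting complex, was at 18.1, 16.7 and 17.7 CPM in sgScr replicates 1, 2 and 3 and 10.9, 10.7 and 10.3 CPM in sgPrkci replicates 1, 2 and 3. It fell from 17.5 ± 0.708 to 10.7 ± 0.327 CPM (-0.67 ± 0.19 SE on the log2 scale, adjusted p = 0.0076), a call that ended with DESeq2 (adjusted p = 0.12).

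Trim8 (ENSMUSG00000025034, chromosome 19, 46501702 to 46516848), a ligase that activates the kinase TAK1 in NF-kappaB signalling, was at 45.3, 54.8 and 57.4 CPM in sgScr replicates 1, 2 and 3 and 65.6, 89.2 and 61.1 CPM in sgPrkci replicates 1, 2 and 3. It rose from 52.5 ± 6.39 to 72.0 ± 15.1 CPM (0.44 ± 0.13 SE on the log2 scale, adjusted p = 0.013), with sgPrkci replicate 2 well above the other libraries. The call ended without sgPrkci replicate 2 (0.27, adjusted p = 0.15), without sgScr replicate 1 (0.33) and with plain moderation. Trim29 (chromosome 9, 43310848 to 43336115), a RING-less member found in basal and squamous epithelia, had 7, 11 and 5 reads in sgScr and 11, 11 and 16 in sgPrkci. It rose from 2.58 ± 0.94 to 4.99 ± 0.777 CPM (0.77 ± 0.30 SE on the log2 scale, adjusted p = 0.049), at the edge of the threshold. Its call ended without each of 5 single libraries (all but sgScr replicate 2), with log2 fold changes of 0.60 to 0.87. It also ended with a pseudocount of 0.25 CPM, no filter, DESeq2 and chromosome medians removed.

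The other 6 of this role did not pass. Trim59, a membrane-bound ligase, was at 94.1 ± 10.5 CPM with sgScr and 82.3 ± 12.3 CPM with sgPrkci (log2 fold change -0.20). Trim35 was at 18.4, 35.8 and 34.0 CPM in the sgScr libraries and 21.9, 23.4 and 27.7 CPM in the sgPrkci libraries, with sgScr replicate 1 well below the other sgScr libraries, and it passed without that library (-0.51). Trim41 was at 37.2 ± 4.39 CPM with sgScr and 31.7 ± 0.672 CPM with sgPrkci (interval -0.51 to 0.07) and Trim47 at 29.2 ± 3.99 CPM with sgScr and 29.9 ± 2.1 CPM with sgPrkci (interval -0.27 to 0.35). Trim45 was at 2.35 ± 0.932 CPM with sgScr and 2.31 ± 0.832 CPM with sgPrkci (interval -0.69 to 0.68) and Trim44 at 25.4 ± 2.95 CPM with sgScr and 23.4 ± 0.0442 CPM with sgPrkci (interval -0.43 to 0.22). Trim44 was at 22.5 to 28.3 CPM in sgScr and at 23.4 CPM in all 3 sgPrkci libraries. Trim41 shares 31 exon bases on the opposite strand with the highly read gene Rack1. Trim62 and Trim69 had 9 and 4 reads in all and were not tested.

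**Figure D3:**
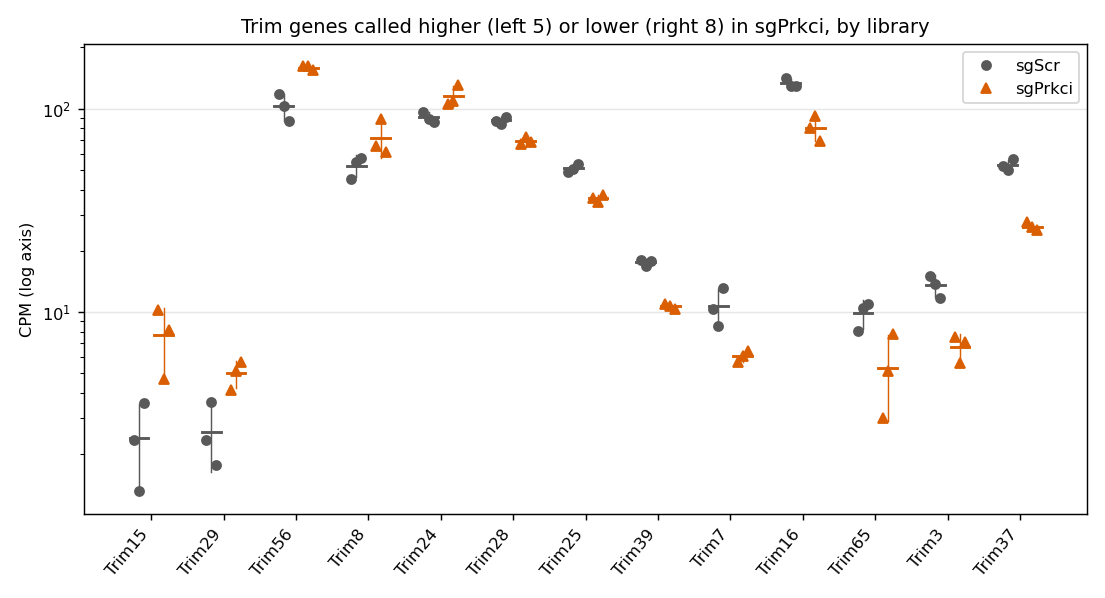
CPM (log axis) of the 13 Trim genes that passed an adjusted p of 0.05, in each library; circles are sgScr, triangles sgPrkci, horizontal bars means and vertical bars SD (n = 3). The groups do not overlap for any of the 13.

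Of the remaining members, Trim15 rose and Trim7 fell. Trim15 (ENSMUSG00000050747, chromosome 17, 36860691 to 36867210), a protein of focal adhesions, had 7, 4 and 10 reads in sgScr and 27, 10 and 23 in sgPrkci. It was at 2.35, 1.31 and 3.54 CPM in sgScr replicates 1, 2 and 3 and 10.2, 4.67 and 8.17 CPM in sgPrkci replicates 1, 2 and 3. With a log2 fold change above 1 it was the member with the largest change in either direction, from 2.40 ± 1.12 to 7.67 ± 2.79 CPM (1.35 ± 0.31 SE on the log2 scale, adjusted p = 0.0013), a 3.20-fold higher mean. Trim15 lies in a group of 4 members with reads in the MHC region of chromosome 17, between 36837134 and 36890123, in the order Trim26, Trim15, Trim10 and Trim40. Trim40, a member known from the gut epithelium, had 1, 0 and 0 reads in sgScr and 4, 2 and 2 in sgPrkci, a ratio by depth of 9.31 with a 95% counting interval of 1.25 to 413. It was too low for the filter, and without a filter limma gave a log2 fold change of 0.88 (adjusted p = 0.046). Trim10 had 1 read, and Trim26 beside them was lower in mean, as given above. Looking at these neighbours together was chosen after their values were seen.

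Trim7 (chromosome 11, 48826140 to 48852209), also called glycogenin-interacting protein, was at 10.4, 8.53 and 13.1 CPM in sgScr replicates 1, 2 and 3 and 5.66, 6.07 and 6.39 CPM in sgPrkci replicates 1, 2 and 3. It fell from 10.7 ± 2.30 to 6.04 ± 0.369 CPM (-0.71 ± 0.24 SE on the log2 scale, adjusted p = 0.02), and the call ended with DESeq2, with chromosome medians removed (-0.32), without sgScr replicate 3 (-0.57) and without sgPrkci replicate 1 (-0.67). Trim7 shares 140 and 491 exon bases with a pair of genes on the opposite strand. Trim11 was at 8.83 ± 0.868 CPM with sgScr and 8.57 ± 1.55 CPM with sgPrkci (interval -0.52 to 0.42), and Trim43b had 1 read.

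Chromosome 11 held 8 of the 35 tested members and 5 of the 8 that fell. They were Trim37, Trim65, Trim16, Trim7 and Trim25, with log2 fold changes of -0.98, -0.84, -0.73, -0.71 and -0.48. None of the 8 rose in limma, at an unadjusted p under 0.05 there, or with edgeR or DESeq2. EdgeR called 5 of the 8 lower and DESeq2 2. Over all 12195 tested genes edgeR called 1815 and DESeq2 1118 lower. Their shares for the genes of chromosome 11 alone are not given here, so these counts are not set against that background. Of all 972 tested genes of the chromosome 2.67% rose and 45.3% fell in limma. Off chromosome 11, 5 of 27 tested members rose and 3 fell, against 12.1% and 18.3% of the tested genes there. When the median of each chromosome was removed, 5 members rose and 4 fell, where 13.1% and 13.3% of all tested genes did. Trim37 and Trim16 kept their calls in that setting, at log2 fold changes of -0.58 and -0.33, and Trim25, Trim65 and Trim7 did not. Trim47, level on the CPM scale, was then called higher (0.44, adjusted p = 0.025). The part of the chromosome-wide shift in the falls of these members was not tested. Trim7 and Trim41 are neighbours 8.79 kb apart, and Trim47 and Trim65 overlap, yet in each pair 1 gene fell and the other did not pass. That difference within the pairs was not tested.

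**Figure D4:**
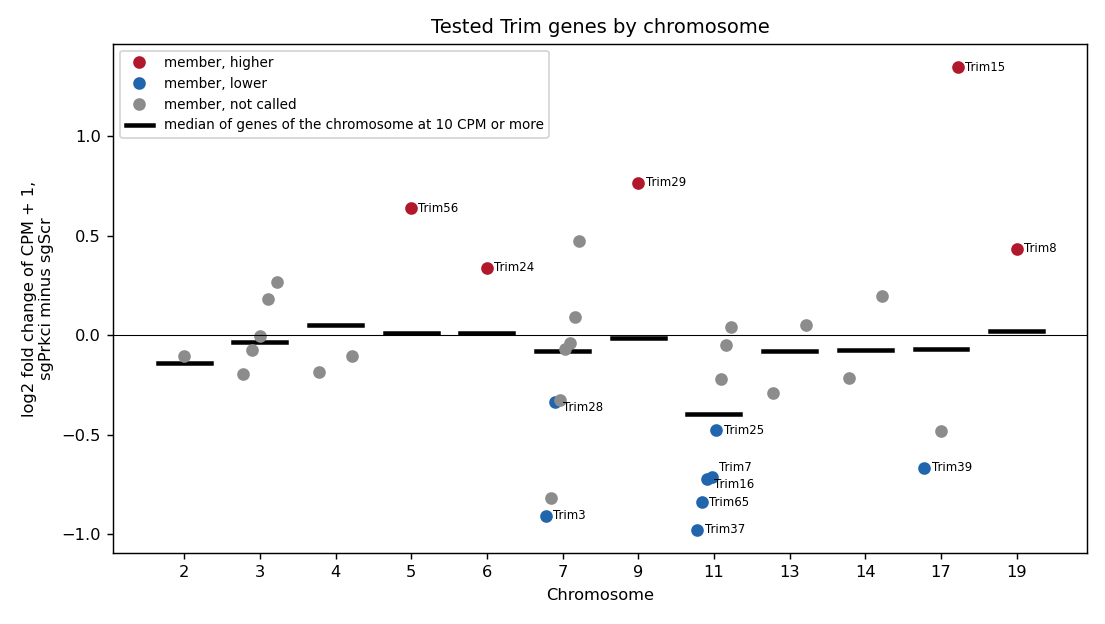
Log2 fold change of CPM + 1 (y axis, sgPrkci minus sgScr) of each tested Trim gene by chromosome; black bars are the median over the chromosome's genes with mean CPM of 10 or more. On chromosome 11 that median is -0.40, with 5 falling members below it and 3 others above it.

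Genes that work beside the TRIM ligases were read from lists. Of 15 tested E1 and E2 enzymes, which charge and hand over ubiquitin, limma called 0 higher and 1 lower, against 11.4% and 20.5% of all tested genes. At an unadjusted p under 0.05, 2 were higher, and edgeR called 4 and DESeq2 3 higher. Of all 12195 tested genes edgeR called 1939 and DESeq2 1422 higher. The 1 that fell was Uba7, the ISG15-activating enzyme gene, at 5.70, 4.26 and 5.67 CPM in the sgScr libraries and 3.02, 0.467 and 1.42 CPM in the sgPrkci libraries (-1.35 ± 0.34 SE on the log2 scale, adjusted p = 0.0028), a call that ended with DESeq2. Ube2d3, of the E2 family most used with RING fingers, was at 490.4 ± 13.7 CPM with sgScr and 542 ± 2.43 CPM with sgPrkci (adjusted p = 0.13), and Ube2n, which makes lysine-63 chains, at 10.0 ± 1.06 CPM with sgScr and 11.2 ± 4.61 CPM with sgPrkci. Of 21 tested sensors and adaptors that TRIM ligases act on, 6 rose and 3 fell, against 11.4% and 20.5% of all tested genes, with a median log2 fold change of -0.05. With TMM scaling 8 rose and 3 fell, against 15.7% and 14.9%. Aim2, Ikbke, Zc3hav1 and Map3k7 had the lowest p among those that rose, with log2 fold changes of 0.85, 1.63, 0.33 and 0.37. The other two were Mavs (0.42) and Traf3 (0.40). The call of Mavs ended with no filter and when sgScr replicate 3 or any 1 sgPrkci library was left out (0.33 to 0.44). That of Traf3 ended with plain moderation, with chromosome medians removed, and when sgScr replicate 2 or 3 or sgPrkci replicate 1 or 2 was left out (0.32 to 0.40). The call of Zc3hav1 ended without sgScr replicate 3 (0.24), without sgPrkci replicate 2 (0.28) and with plain moderation, and that of Map3k7 without sgScr replicate 1 (0.25), without sgPrkci replicate 1 (0.35) and with plain moderation. Map3k7, which encodes the TRIM8 partner TAK1, was at 48.9, 63.0 and 63.4 CPM in the sgScr libraries and 77.3, 73.3 and 75.6 CPM in the sgPrkci libraries. The 3 that fell were Ifih1, the gene of the TRIM65 partner MDA5, Tmem173, the gene of STING, and Isg15. Ifih1 was at 19.4, 12.8 and 16.3 CPM in the sgScr libraries and 10.6, 7.94 and 9.23 CPM in the sgPrkci libraries and fell from 16.2 ± 3.33 to 9.24 ± 1.31 CPM (-0.74 ± 0.21 SE on the log2 scale, adjusted p = 0.0079), a call that ended with DESeq2 and without sgScr replicate 1 (-0.60). Tmem173 fell from 36.4 ± 1.56 to 22.1 ± 2.15 CPM and Isg15 from 5.17 ± 1.12 to 2.15 ± 0.647 CPM. The call of Isg15 ended with DESeq2, and also when sgScr replicate 1, sgScr replicate 2 or sgPrkci replicate 1 was left out (-0.92 to -0.82). Ddx58, which encodes the TRIM25 partner RIG-I, was at 15.4, 8.20 and 8.5 CPM in the sgScr libraries and 10.6, 7.94 and 8.88 CPM in the sgPrkci libraries (interval -0.65 to 0.33).

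TRIM proteins whose genes carry other symbols were Pml, Mid1, Mid2, Mefv and Cmya5, of which 4 were tested. Mid2, a microtubule-binding ligase gene, rose from 16.8 ± 0.378 to 24.3 ± 2.72 CPM (0.50 ± 0.17 SE on the log2 scale, adjusted p = 0.024). Its relative Mid1 fell from 2.69 ± 0.806 to 0.814 ± 0.761 CPM (-1.10 ± 0.38 SE on the log2 scale, adjusted p = 0.025), on 24 reads in sgScr and 6 in sgPrkci. The annotation places both genes on chromosome X, and whether some of their reads came from the Y chromosome was not tested. Pml, the gene of the nuclear body protein, was at 25.6 ± 5.54 CPM with sgScr and 27.1 ± 2.87 CPM with sgPrkci (interval -0.25 to 0.44), and Mefv did not pass. The call of Mid1 ended with edgeR, DESeq2 and plain moderation. It also ended when sgScr replicate 1, sgScr replicate 2 or sgPrkci replicate 3 was left out (-1.02 to -0.72), and that of Mid2 when sgScr replicate 2, sgPrkci replicate 1 or sgPrkci replicate 2 was (0.42 to 0.50).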

How the data were processed

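For each library 200 ng of RNA went into QuantSeq 3' FWD preparation, a kit with optional molecular identifiers, per the labels' protocols. GRCm38 was the genome build, per the submitters' processing notes, and the aligner, counting program, strand setting and handling of molecular identifiers were not given in the sources used here. As deposited by the authors, the data are 1 table of 20756 genes in CPM. Dividing by what 1 read was worth gave a whole number for all 124536 values (tolerance 1e-06 of a read), so reads were recovered, and 0 columns were left unmapped. No pair of libraries agreed within sampling noise (chi-square per degree of freedom 1.63 to 3.18 within groups). Groups came from the genotype label, where the control is spelled sgScbr. Libraries of a group are biological replicates in the submitters' words, without a statement on what separates them.

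Symbols and positions came from GENCODE M21 by identifier. Genes at 1 CPM or more in at least 3 of 6 libraries were tested with limma 3.58.1 (R 4.3.3) on log2(CPM + 1), with trend and robust moderation, two-sided, checked on simulated reads. The alternatives tried were a pseudocount of 0.25 or 5 CPM, no filter or 1 at 5 CPM, TMM and median-of-ratios scaling, plain moderation, chromosome medians removed (chromosomes with at least 50 genes at a mean of 10 CPM), each library left out, and edgeR 4.0.16 and DESeq2 1.42.0 on recovered reads. Removing chromosome medians treats each median as known. Members, roles and lists were chosen with earlier results of these data known. Values per library are given for called members and 13 genes chosen for their roles, of which Trim31 was not analysed here. Of each pathway list, up to 4 called genes with the lowest p and every called gene of a direction with 5 or fewer are named, mostly with means or log2 fold changes. Other named list genes were chosen after their values were seen. Counting intervals are exact at 95% and cover counting error only.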

Additional observations from a re-analysis of the deposited data

How the results depend on the processing

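Of the 13 members called, 5 (Trim15, Trim16, Trim3, Trim37 and Trim56) kept their direction and call under every alternative that tested them. Trim16, Trim3, Trim37 and Trim56 were tested in all 16, while Trim15 did not reach the filter at 5 CPM. None of the alternatives addressed the transcript-end sequence that Trim16 shares with Fbxw10. The count of members that rose was 5 and became 3 with a filter at 5 CPM and 3 with plain moderation. The count that fell was 8 and became 3 with DESeq2 and 4 with chromosome medians removed. Over all 12195 tested genes 1387 rose and 2495 fell in the limma fit above. The counts were 994 and 1854 with plain moderation, 1422 and 1118 with DESeq2, and 1603 and 1624 with chromosome medians removed. They were 1918 and 1816 with TMM, 1924 and 1810 with median-of-ratios, and 1939 and 1815 with edgeR. With a filter at 5 CPM they were 1298 and 2327 of 9557 genes. Leaving out single libraries gave 3 to 5 that rose and 6 to 9 that fell, where 1091 to 1370 and 1758 to 2424 of all tested genes did. For the E1 and E2 enzymes the count higher was 4 with TMM, 4 with median-of-ratios, 4 with edgeR, 3 with DESeq2 and 1 with a filter at 5 CPM, and 0 to 1 without single libraries. Their count lower was 0 with a filter at 5 CPM and 0 with DESeq2, and 1 to 2 without single libraries. Of the TRIM28 and SMAD partners 3 fell with DESeq2. Of the sensors and adaptors 1 fell with DESeq2, and without single libraries 3 to 6 rose and 1 to 4 fell. Of the TRIM genes with other symbols 0 fell with a filter at 5 CPM, plain moderation, edgeR or DESeq2, and without single libraries 0 to 1 rose and 0 to 1 fell.

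Among the tested members, signs turned under these alternatives only where limma made no call. In the order TMM, median-of-ratios, edgeR, DESeq2 and chromosome medians removed, log2 fold changes were 0.044, 0.045, 0.059, 0.061 and 0.35 for Trim11, 0.042, 0.042, 0.066, 0.060 and 0.040 for Trim12a, and 0.064, 0.064, 0.022, 0.048 and 0.031 for Trim45. Trim34a was at 0.012 with DESeq2 and 0.0078 with chromosome medians removed, where Trim41 was at 0.18 and Trim44 at 0.035. Without single libraries the ranges were -0.13 to 0.094 for Trim11, -0.16 to 0.095 for Trim12a, -0.28 to 0.083 for Trim14, -0.035 to 0.19 for Trim21, -0.14 to 0.26 for Trim23, -0.35 to 0.29 for Trim34a, -0.22 to 0.19 for Trim45 and -0.015 to 0.15 for Trim47. The cause was not tested. No paired analysis was possible because the replicate numbers are accession order and pair nothing. Depth limits members under about 10 reads per library, whose 95% intervals span more than 1 on the log2 scale.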
